A study of Glycine max with 32 samples.

Results

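The 200 soybean genes described here are those whose leaf transcripts rose most in WT between the V4–V5 and R5–R6 stages. They were taken from the 52872 soybean genes of the count table by the ratio of the mean R5–R6 level to the mean V4–V5 level of the 16 WT libraries, each mean raised by a pseudocount of 0.5 CPM (each count divided by the total of its library and scaled to a fixed sum), among the 16309 genes with a mean of 10 CPM or more in WT at R5–R6. Glyma.09G000600 was left out by the rule. Because the WT values chose the genes, they are given as a description and were not tested. The tests below were made in the 16 libraries of VPZ-34A, which the choice did not use.

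WT was soybean cultivar Maverick, and VPZ-34A was its T5 progeny from a single transformation event that overexpresses the Arabidopsis genes AtVDE, AtPsbS and AtZEP of the xanthophyll cycle and photoprotection. Both lines were grown in the field under free-air enrichment, at an a[CO2] of 410 or an e[CO2] of 600 µmol per mol of air, and leaf sampling fell 31 days after sowing for V4–V5 and 86 days after it for R5–R6. Both lines grew in each of the 8 rings, with sampling at both stages. Rings 1, 2, 4 and 7 were at a[CO2] and rings 3, 5, 6 and 8 at e[CO2], so that each of the 8 groups of line, CO2 level and stage had 4 libraries. By the methods, disks were cut from the youngest leaf that had fully expanded, at both stages, and pooled over several plants of a plot. The stages named are those of the plant. The age of the sampled leaves is not given and cannot be told apart from stage. The plants of a ring shared its soil, its insecticide treatment and its weather. Growth stage and sampling date cannot be told apart, and neither can less RNA per cell and fewer cells of a type.

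As a soybean plant passes from vegetative growth to seed filling, carbon and nitrogen are increasingly exported from its leaves to the seed. Leaf nitrogen and phosphorus are recovered by proteases, phosphatases and lipid-degrading enzymes, and many regulators of flowering and defence change as a plant develops. Field plots differ in soil and in exposure to insects and pathogens, so that genes of stress responses can vary from plot to plot.

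Library totals ranged from 16091207 to 63132399 counts, and 3 counts, taken as the floor of detection for counting error only, corresponded to 0.0475 to 0.186 CPM. The 3 transgenes had 58.4 CPM or more in every VPZ-34A library and at most 0.994 CPM in a WT library. The 3 genes annotated as light harvesting proteins summed to 2878 to 5530 CPM in the V4–V5 libraries of VPZ-34A and to 3545 to 6199 CPM at R5–R6, and of the 3, 0 were called higher and 1 lower, with a median log2FC of −0.20. The VPZ-34A library of ring 7 at R5–R6 stood apart, with a mean correlation of 0.944 to the other 3 libraries of its group against a median of 0.974 over all libraries. The WT library of ring 8 at R5–R6 came next, at 0.963. Without ring 7, Glyma.02G228100 and Glyma.20G238000 lost the call for stage in VPZ-34A, and the CO2 counts at R5–R6 are given both ways. The rule applied to WT without ring 8 kept 180 of the 200 members.

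Most members were low or nearly silent at V4–V5. However, 21 members in WT and 20 in VPZ-34A had means of 10 CPM or more there, up to 173 and 171 CPM. At R5–R6 the means ran from 10.04 to 3128 CPM in WT and from 2.56 to 2320 CPM in VPZ-34A. The mean level of a member in WT had a median of 1.77 CPM at V4–V5 and of 32.6 CPM at R5–R6, and 67 of the 200 were under 1 CPM at V4–V5. In VPZ-34A the same medians were 1.64 and 30.2 CPM, and 70 members were under 1 CPM at V4–V5. The level of 31 members reached 100 CPM or more in VPZ-34A at R5–R6, and 185 of the 200 reached the 10 CPM that the rule asked of WT.

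**Figure D1:**
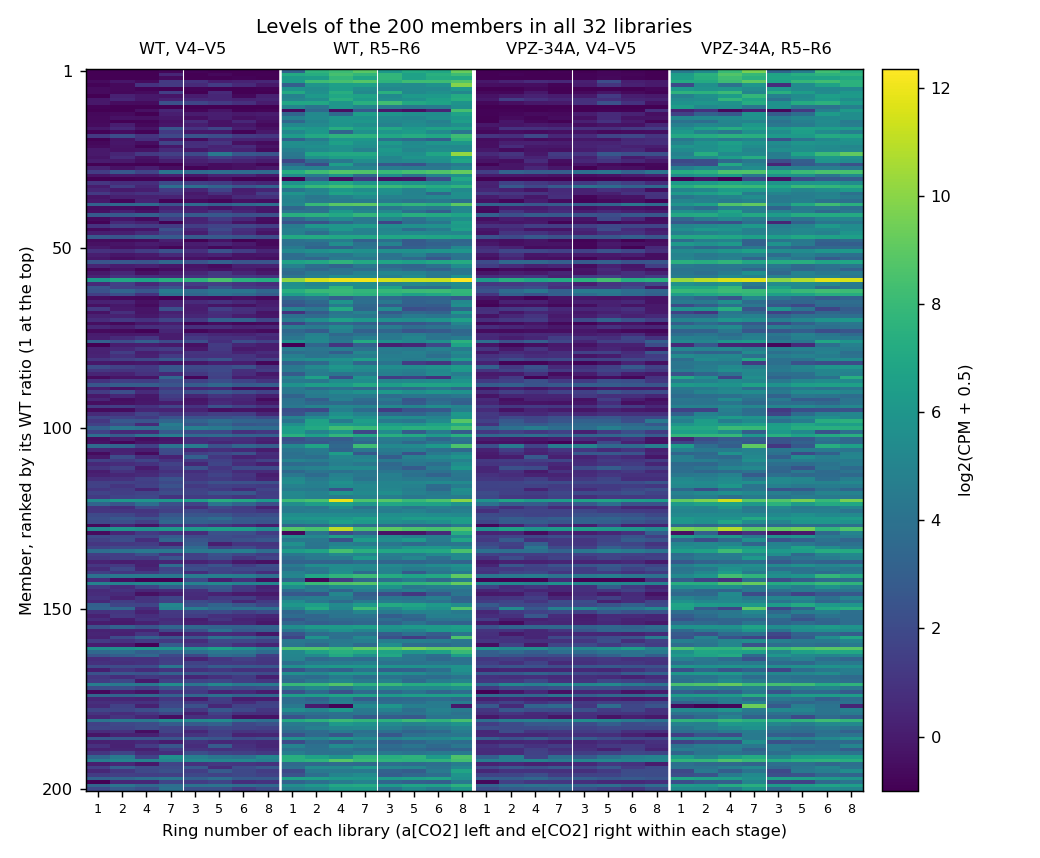
Colour gives log2(CPM + 0.5) of each of the 200 members (rows, ranked by their WT ratio) in each of the 32 libraries (columns, grouped by line and stage, with the ring number under each). The rows turn lighter from V4–V5 to R5–R6 in both lines, and single libraries such as ring 8 of WT and ring 7 of VPZ-34A at R5–R6 hold isolated bright cells.

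The stage change was also seen in VPZ-34A, whose libraries were not used to choose the genes. These libraries came from the same 8 rings and sampling dates as those of WT, so they are not a separate field trial. In VPZ-34A, 197 of the 200 members were higher at R5–R6 by edgeR's quasi-likelihood test (adjusted p under 0.05 and a log2 fold change, log2FC, of 1 or more), none were lower, and the background was 11.4% of the 34786 genes tested. All 200 members passed the filter on low counts. Without ring 7 the count was 195, beside 11.2% of the genes tested. The median log2FC of the members was 3.58, with quartiles of 3.02 and 4.85 and a range of 1.58 to 12.93, beside a median of 0.01 over all genes tested. The highest value is that of Glyma.19G108100, which had no count in any V4–V5 library of VPZ-34A, so its size is not measured. The lowest R5–R6 library lay above the highest V4–V5 library for 180 members, where the background was 20.9% of the genes tested, and 191 members were higher at R5–R6 in each of the 8 rings, where it was 34.9%.

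On library totals the median gene tested was 0.25 higher at R5–R6 on the log2 scale and on TMM library sizes it was at 0.00, so that the median difference of the members was 3.42 on totals and 3.17 on TMM sizes.

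**Figure D2:**
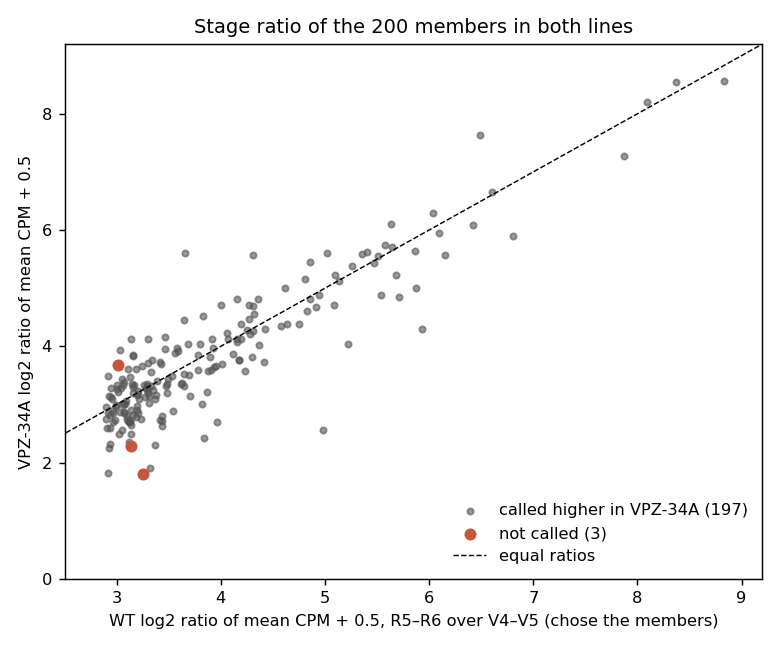
Each point is 1 of the 200 members, with the log2 ratio of its mean R5–R6 level to its mean V4–V5 level (mean CPM + 0.5) in WT, which chose it, on the x axis and in VPZ-34A on the y axis, and the dashed line marks equal ratios. The VPZ-34A ratios run from 1.80 to 8.57, and the 3 members not called are drawn larger.

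The ratio of a member in VPZ-34A lay below its WT ratio for 121 members and above it for 79, with a median difference of −0.07 on the log2 scale. The rule applied to VPZ-34A in place of WT would have taken 149 of the 200 members (74.5%). Glyma.10G247925 and Glyma.09G009700 had the most negative differences (−2.42 and −1.63) and Glyma.13G004400 the most positive (1.95), and these genes were singled out after their values were seen. Values that chose the members are part of these differences, which were not tested.

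The gene with the highest WT ratio was Glyma.05G126800, at 8.83. In WT it was at 0 to 0.0987 (median 0) CPM at V4–V5 and at 8.63 to 606 (median 166) CPM at R5–R6. In VPZ-34A it ranged over 0 to 0.0897 (median 0) CPM in the 8 V4–V5 libraries and over 10.3 to 771 (median 100.5) CPM in the 8 R5–R6 libraries. All V4–V5 libraries were at or near 0, while the R5–R6 libraries spread widely within both lines, from 10.3 CPM in ring 3 to 771 CPM in ring 7 of VPZ-34A. The change in VPZ-34A passed the test (adjusted p = 3.07e-07), and no fold is given because at most 5.00 counts stood behind a V4–V5 value.

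Glyma.06G307900 and Glyma.11G093100 followed at ratios of 8.37 and 8.09. Glyma.06G307900 ranged over 0 to 0.0897 (median 0.0208) CPM in VPZ-34A at V4–V5 and over 85.8 to 416 (median 188) CPM at R5–R6. Its WT levels were of the same kind, except for ring 7 at V4–V5, which held 0.839 CPM where the other 3 a[CO2] libraries held none. Glyma.11G093100 ranged over 93.3 to 308 (median 124) CPM in VPZ-34A at R5–R6, after at most 0.108 CPM at V4–V5. Both genes separated the stages without overlap in both lines (adjusted p = 9.98e-12 and 3.39e-11 in VPZ-34A).

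One member, Glyma.19G108100, had no count in any of the 8 VPZ-34A libraries at V4–V5. At R5–R6 it ranged over 15.6 to 86.8 (median 33.4) CPM, a mean at least 312-fold higher than 3 counts per library would give. The WT libraries held 16.9 to 64.3 (median 27.4) CPM at R5–R6 and a single count at V4–V5, in ring 1. This gene ranked 11 and was picked out after its values were seen.

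Glyma.03G226800 went from 1.06 ± 1.09 CPM to 242 ± 134 CPM in VPZ-34A (SD, n = 8), a log2FC of 7.52 (standard error 0.50, adjusted p = 2.74e-09). Glyma.02G070000 went from 0.668 ± 0.526 CPM to 78.8 ± 64.7 CPM, a log2FC of 6.51 (standard error 0.50, adjusted p = 1.27e-08). In both, ring 5 held the highest V4–V5 level of VPZ-34A (3.71 and 1.94 CPM) and ring 7 the highest R5–R6 level (525 and 228 CPM). Glyma.14G004500 rose by 5.67 (standard error 0.44, adjusted p = 1.61e-08) and Glyma.18G052600 by 6.61 (standard error 0.49, adjusted p = 8.91e-09) on the log2 scale.

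Glyma.16G044200 was the steadiest of the 10 at R5–R6. It ranged over 39.3 to 70.01 (median 49.8) CPM in VPZ-34A and over 35.4 to 86.3 (median 46.6) CPM in WT, from at most 0.101 and 0.150 CPM at V4–V5. Glyma.19G015000 was more uneven, at 33.2 to 264 (median 129) CPM in VPZ-34A. Its rings 1, 2, 3 and 4 held 195, 182, 172 and 264 CPM, and no other ring exceeded 85.6 CPM. In WT, the high rings were 1, 3 and 4 (135, 176 and 158 CPM), with the others at 35.5 to 51.8 CPM. Both CO2 levels are among these rings.

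The most abundant member was Glyma.15G177800. In VPZ-34A it was at 79.5 to 328 (median 163) CPM at V4–V5 and at 1046 to 3408 (median 2454) CPM at R5–R6, a log2FC of 3.52 (standard error 0.28, adjusted p = 1.63e-08). In WT it went from 68.8 to 367 (median 164) CPM to 1125 to 5183 (median 2820.1) CPM. The stages did not overlap in either line, and ring 5 held the highest V4–V5 level in both (367 CPM for WT, 328 CPM for VPZ-34A). Of its nonzero values, 78.1% were not whole numbers, so that some of its reads were shared with similar genes. This is a share of libraries and not of reads, and the part of the level that it affects is not known.

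Glyma.17G230700 and Glyma.14G092800 ranked next by level, and ring 4 set their maxima in both lines. Glyma.17G230700 was at 246 to 2541 (median 655) CPM in VPZ-34A at R5–R6, where ring 4 held 2541 CPM and the next ring 877 CPM. In WT, ring 4 held 3793 CPM against 249.6 to 459 CPM in 6 other rings and 1018 CPM in ring 8. Glyma.14G092800 held 1807 CPM in ring 4 of VPZ-34A and 2039.7 CPM in ring 4 of WT, with the next levels at 776 and 508 CPM. The stage changes were 2.82 (standard error 0.34, adjusted p = 1.86e-06) and 2.96 (standard error 0.30, adjusted p = 3.40e-07) on the log2 scale.

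The remaining abundant members differed less between rings. Glyma.09G118900 was at 192 to 314 (median 255.9) CPM in VPZ-34A and 169 to 278 (median 251) CPM in WT at R5–R6, after 4.88 to 23.0 (median 13.1) CPM in VPZ-34A at V4–V5. All its values were whole counts, and its log2FC was 3.93 (standard error 0.25, adjusted p = 1.67e-09). Glyma.12G132500, also counted in whole reads, rose by 4.59 (standard error 0.30, adjusted p = 2.34e-09), Glyma.09G151700 by 3.13 (standard error 0.25, adjusted p = 2.31e-08), Glyma.15G251500 by 2.53 (standard error 0.26, adjusted p = 3.22e-07) and Glyma.14G031000 by 2.49 (standard error 0.24, adjusted p = 2.11e-07) on the log2 scale.

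**Figure D3:**
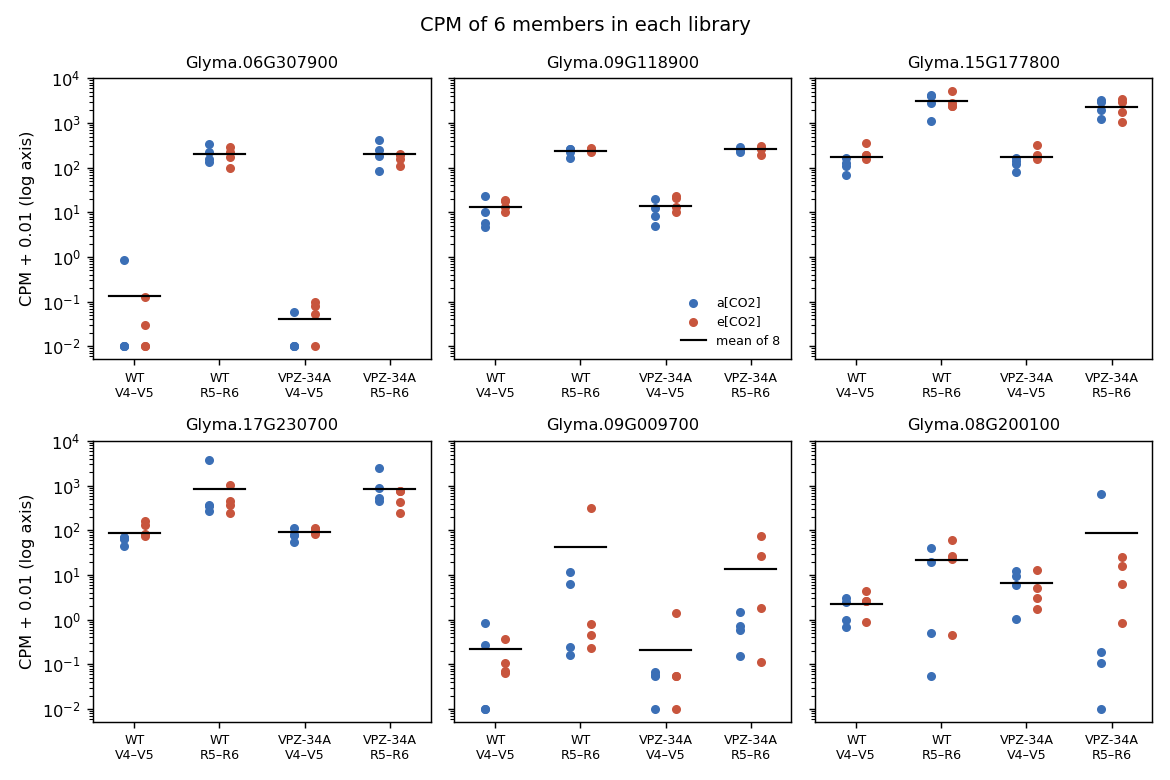
Points give the level of 6 members in each library on a log axis (CPM + 0.01), by line and stage, coloured by CO2 level, and bars give the mean of the 8 libraries. Glyma.06G307900, Glyma.09G118900, Glyma.15G177800 and Glyma.17G230700 separate the stages in both lines, whereas the mean of Glyma.09G009700 at R5–R6 and of Glyma.08G200100 in VPZ-34A rests on few libraries.

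Names were at hand for 13 of the 200 members, from the Arabidopsis homologues the study lists, and the roles given next are those of the Arabidopsis genes. The study listed such names for 666 genes that it had picked for effects of line or CO2, so that they are no sample of the members, and the 13 were brought together after the values were seen. Of the 641 listed genes tested, 142 were higher and 167 lower at R5–R6 in VPZ-34A, with a median log2FC of −0.03.

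Enzymes of phosphate and lipid turnover were among the named members. Glyma.05G247900 is listed as PAP17, a purple acid phosphatase that releases phosphate and that rises in phosphate-starved and ageing Arabidopsis leaves. It was at 2.82 to 30.1 (median 14.4) CPM in VPZ-34A at V4–V5 and at 32.8 to 144 (median 85.5) CPM at R5–R6, a log2FC of 2.10 (standard error 0.42, adjusted p = 3.21e-04). It was higher at R5–R6 in each of the 8 rings, and the lowest V4–V5 and R5–R6 libraries were ring 4 and ring 3. Glyma.20G238000 is listed as phospholipase D P1 (PLD zeta 1), which hydrolyses membrane phospholipids to phosphatidic acid. It was at 1.46 to 6.97 (median 2.34) CPM and then at 3.63 to 47.8 (median 10.1) CPM in VPZ-34A, a log2FC of 1.65 (standard error 0.49, adjusted p = 0.00741), among the 5 smallest changes of the members. The stages overlapped and ring 2 fell, from 6.65 to 3.63 CPM. Without ring 7, which held 47.8 CPM at R5–R6, its log2FC was 0.99 (adjusted p = 0.0436) and was no longer called.

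Glyma.15G158900 is listed as FTSH8, a subunit of the thylakoid FtsH protease that removes damaged D1 protein during the repair of photosystem II. It was at 23.2 to 37.5 (median 31.8) CPM in VPZ-34A at V4–V5 and at 148 to 387 (median 202) CPM at R5–R6, without overlap, a log2FC of 2.53 (standard error 0.12, adjusted p = 7.49e-11). Glyma.20G015400 is listed as the serine carboxypeptidase-like gene scpl50. It rose from 2.76 to 4.08 (median 3.55) CPM to 15.3 to 55.4 (median 19.6) CPM, a log2FC of 2.53 (standard error 0.18, adjusted p = 6.84e-09). Of the nonzero values of these genes, 59.4% and 84.4% were not whole numbers.

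Regulators of flowering in Arabidopsis were also measured in these leaves. Glyma.20G153700 is listed as AGL9 (SEP3), a MADS-box factor that specifies floral organs, and it was the last gene inside the rule. It was at 1.73 to 8.33 (median 3.94) CPM in VPZ-34A at V4–V5 and at 10.97 to 60.3 (median 36.1) CPM at R5–R6, a log2FC of 2.67 (standard error 0.29, adjusted p = 6.10e-07). Glyma.20G154200 is listed as the MADS-box gene AGL42, which promotes flowering. It was at 0 to 1.39 (median 0.0228) CPM and then at 1.36 to 13.5 (median 7.19) CPM, a log2FC of 4.23 (standard error 0.83, adjusted p = 2.95e-04). The list of flower genes matched only the 2 listed AGL42 copies and not SEP3, so it cannot show the amount of flower tissue. The sum of the 2 copies was 0 to 1.39 CPM in the V4–V5 libraries of VPZ-34A and 1.62 to 17.5 CPM at R5–R6, and 2 of 2 were higher. Their part in the change of other members was not tested. The single nodule marker was lower at R5–R6.

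Glyma.16G147500 is listed as an Integrase-type DNA-binding protein, the name the Arabidopsis annotation gives to AP2/ERF transcription factors. It rose from 0.842 to 6.20 (median 2.80) CPM to 10.7 to 39.5 (median 17.5) CPM in VPZ-34A, a log2FC of 2.45 (standard error 0.29, adjusted p = 2.11e-06). Glyma.04G240800 is listed as alcohol dehydrogenase 1, the enzyme of ethanol fermentation. It was at 0.336 to 1.46 (median 0.555) CPM and then at 0.799 to 16.97 (median 6.33) CPM, a log2FC of 2.92 (standard error 0.39, adjusted p = 6.87e-06), and ring 1 held the lowest R5–R6 level. Glyma.19G008700, a zinc-binding dehydrogenase, rose by 5.46 (standard error 0.60, adjusted p = 8.18e-07) on the log2 scale. Its WT level at R5–R6 was 1148 CPM in ring 8 and 19.6 to 134 CPM in the other rings, and its VPZ-34A level was also highest in ring 8, at 540.1 CPM.

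The 4 other named members carry domain names only. Glyma.13G365300 and Glyma.08G212300 are tetratricopeptide repeat proteins, Glyma.05G190100 holds a domain of unknown function (DUF506) and Glyma.07G251300 belongs to an uncharacterised family (UPF0497). Their log2FC in VPZ-34A was 6.21 (standard error 0.77, adjusted p = 2.85e-06), 3.05 (standard error 0.32, adjusted p = 5.04e-07), 4.82 (standard error 0.31, adjusted p = 2.10e-09) and 3.83 (standard error 0.30, adjusted p = 1.55e-08). The largest spread was that of Glyma.13G365300, at 2.51 to 78.8 (median 10.9) CPM at R5–R6.

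The pathway lists could be read only among the 666 genes with a name, and the lists held at most 6 genes each. The list of storage proteins and phosphatases held 1 gene, the member PAP17. No member was in another pathway list. Of the 6 listed cytochrome P450 genes, 3 were higher and 1 lower at R5–R6 in VPZ-34A, of the 6 auxin response genes 4 and 1, of the 5 glutathione S-transferases 1 and 1, of the 4 amino acid, peptide and nitrate transporters 0 and 2, and of the 3 cysteine and aspartic proteases tested 0 and 2 (median log2FC −4.51). Over all genes tested, 11.4% were higher and 18.3% lower.

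The members did not rise evenly across the field. Together they took 0.0752% to 0.142% of the counts of a VPZ-34A library in the V4–V5 samples, which became 0.926% to 2.10% in the R5–R6 samples. In WT the ranges were 0.0677% to 0.163% and 0.924% to 2.60%. In VPZ-34A at R5–R6 the share was 1.14% in ring 1, 1.29% in ring 2, 2.10% in ring 4 and 1.85% in ring 7 at a[CO2], and 0.926% in ring 3, 1.21% in ring 5, 1.49% in ring 6 and 1.49% in ring 8 at e[CO2]. Rings 4 and 7 were the highest, ring 3 was the lowest and the CO2 levels overlapped. In WT at R5–R6 the highest shares were 2.60% in ring 8 and 2.38% in ring 4 and the lowest 0.924% in ring 1.

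**Figure D4:**
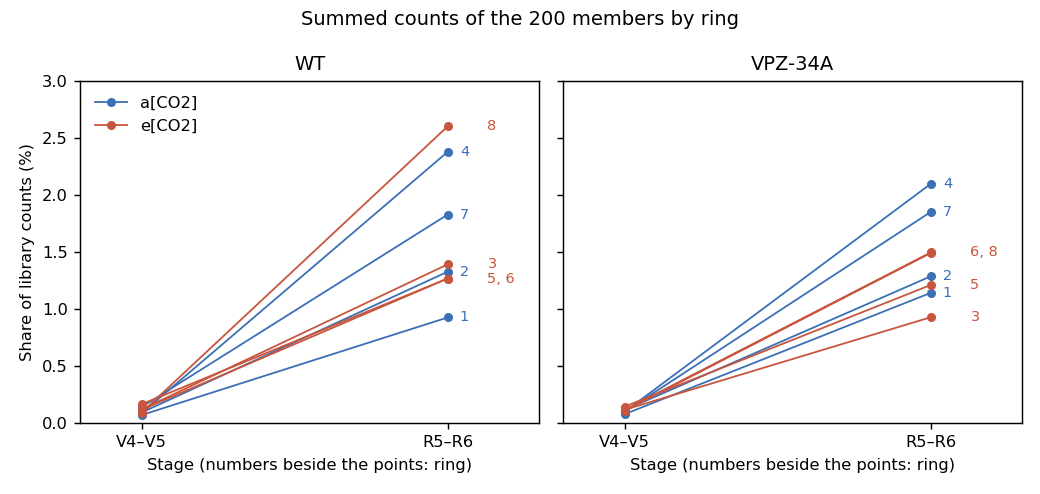
Lines join the V4–V5 and R5–R6 libraries of a ring, by line (panels) and CO2 level (colours), and the y axis is the share of all counts of a library that fell on the 200 members. Every ring rises from 0.163% or less to 0.924% or more, and the R5–R6 shares of the CO2 levels overlap in both lines.

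Without Glyma.15G177800 the order of the rings in VPZ-34A kept ring 4 at the top (1.80%) and ring 3 at the bottom (0.822%). The median rise of the members within a ring ran from 3.13 on the log2 scale in ring 3 to 3.93 in ring 4 of VPZ-34A, and from 2.96 in ring 5 to 4.31 in ring 8 of WT. In each VPZ-34A ring 195 to 200 members were higher at R5–R6 than at V4–V5.

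At R5–R6, 63 members had their highest VPZ-34A level in ring 4, 57 in ring 7 and 25 in ring 8, and 2 in ring 3. In WT, 73 were highest in ring 8, 60 in ring 4 and 18 in ring 7. For 79 of the 200 members (39.5%) the highest ring was the same in both lines, beside 24.2% of all genes tested. The WT values in this count also chose the members, so the difference from all genes is a description and was not tested. At V4–V5 the highest ring was ring 5 for 60 members in WT and 59 in VPZ-34A, and ring 7 for 68 in WT but 8 in VPZ-34A. Shares of all genes by highest ring were not counted, so the counts for single rings cannot be called particular to the members. Ring 7 at R5–R6 is also the VPZ-34A library that stood apart.

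The ratio of the highest to the lowest VPZ-34A library at R5–R6 had a median of 3.44 over the members, and it was under 2 for 25 members. Glyma.05G141300 had the smallest ratio, at 1.31, with 38.8 to 50.8 (median 40.7) CPM. For 36 members the highest library exceeded the lowest by more than 10-fold, and for 9 by more than 100-fold. The corresponding counts in WT were 37 and 8. The same spreads were not counted over all genes, so these counts describe the members without a comparison. Some of the lowest libraries lay under the floor of 3 counts, as for Glyma.08G200100 at 0 CPM in ring 2 of VPZ-34A. The size of a ratio to such a library is not measured. For 18 members the WT mean at R5–R6 would have been under the 10 CPM of the rule without its highest library.

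Ring 8 held the highest level of several of these uneven members in both lines. Glyma.09G009700 was at 323 CPM in ring 8 of WT at R5–R6 and at 0.150 to 11.5 CPM in the other 7 rings. In VPZ-34A, ring 8 held 75.7 CPM, ring 6 held 26.6 CPM and the other 6 rings 0.106 to 1.79 CPM. Its stage change was 4.85 (standard error 1.24, adjusted p = 0.00272) by edgeR and was not called by limma-voom (adjusted p = 0.115), and it was higher at R5–R6 in 8 of 8 rings. Glyma.10G247925 was at 120.3 CPM in ring 8 of WT and at 6.10 CPM or less in the others. In VPZ-34A it was at 0.00523 to 7.11 (median 1.61) CPM, with ring 8 highest and ring 6 close to it at 6.40 CPM.

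Glyma.18G210500, among the 10 highest by WT ratio, held 924 CPM in ring 8 of WT and 7.57 to 94.2 CPM in the other rings. Its VPZ-34A levels were 1.16 to 183 (median 46.5) CPM, again with ring 8 highest and ring 3 lowest, and its log2FC was 6.92 (standard error 0.88, adjusted p = 4.03e-06). Ring 4 carried Glyma.17G128000, at 88.8 CPM for WT and 133 CPM for VPZ-34A, where no other ring exceeded 21.2 and 30.9 CPM. These uneven members, other than Glyma.18G210500, were picked out after their values were seen.

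The 3 members that were not called in VPZ-34A belonged to the uneven genes. Glyma.08G200100 was at 1.02 to 13.1 (median 5.60) CPM at V4–V5, and at R5–R6 at 655 CPM in ring 7 and at 0 to 25.8 CPM in the other 7 rings. Its log2FC of 2.53 (standard error 1.26, adjusted p = 0.089) turned to −2.59 without ring 7 (adjusted p = 0.0123), and it was higher at R5–R6 in 4 of 8 rings. Glyma.14G195000 was at 3.84 to 42.3 (median 23.3) CPM and then at 2.85 to 517 (median 53.2) CPM, with a log2FC of 1.94 (standard error 0.93, adjusted p = 0.0775), and it was higher at R5–R6 in 4 of 8 rings. Its value without ring 7, which held the 517 CPM, was 1.01 (adjusted p = 0.330), without ring 2 it was called (2.46, adjusted p = 0.0382), and limma-voom gave 0.41 (adjusted p = 0.748). Glyma.18G172800 was at 0.151 to 7.42 (median 0.803) CPM and then at 0.228 to 31.9 (median 0.974) CPM, with a log2FC of 1.68 (standard error 0.89, adjusted p = 0.108), and it was at 0.94 (adjusted p = 0.395) without ring 2 and at 0.70 (adjusted p = 0.577) by limma-voom.

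The smallest change among all members was that of Glyma.19G231900, from 2.13 to 4.10 (median 2.86) CPM to 4.08 to 39.4 (median 7.15) CPM in VPZ-34A, a log2FC of 1.58 (standard error 0.39, adjusted p = 0.00209). It was higher in each ring, and rings 4 and 7 held 21.4 and 39.4 CPM. Glyma.08G093600 rose by 1.84 (standard error 0.36, adjusted p = 2.66e-04) on the log2 scale. Glyma.02G228100, Glyma.08G355900 and Glyma.15G114000 were called (log2FC of 2.33, 2.16 and 2.56 by edgeR) but lost the call when 1 ring was left out. All of them also lost it by limma-voom with every ring kept, with or without the ring as a random block. With the ring as a fixed replicate block, Glyma.02G228100 was at 1.17 (adjusted p = 0.294 by edgeR) and was not called, and Glyma.08G200100 was at −1.10. For Glyma.02G228100 the value was 2.29 without ring 1, 1.77 without ring 6, 1.47 without ring 7 and 2.29 without ring 8, and the other 2 genes were at 1.48 and 1.83 without ring 2.

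The stage change was tested at each CO2 level of VPZ-34A. At a[CO2], 194 members were called higher, beside 11.3% of the genes tested, with a median log2FC of 3.85. At e[CO2], 191 were called higher, beside 10.8%, with a median of 3.42. The difference of the stage change between the CO2 levels was called for 0 members and 0% of all genes by edgeR. By DESeq2 it was called for 0 members and 1 of 34786 genes. At an unadjusted p under 0.05 it was found for 33 members, each with a smaller rise at e[CO2], beside 4.44% of all genes tested. Some of the 33 rest on few V4–V5 counts. Glyma.11G093100, at −4.76, had no count in any a[CO2] library of VPZ-34A at V4–V5, so the size of its difference is not measured. The median difference was −0.51 over the members and −0.02 over all genes tested.

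**Figure D5:**
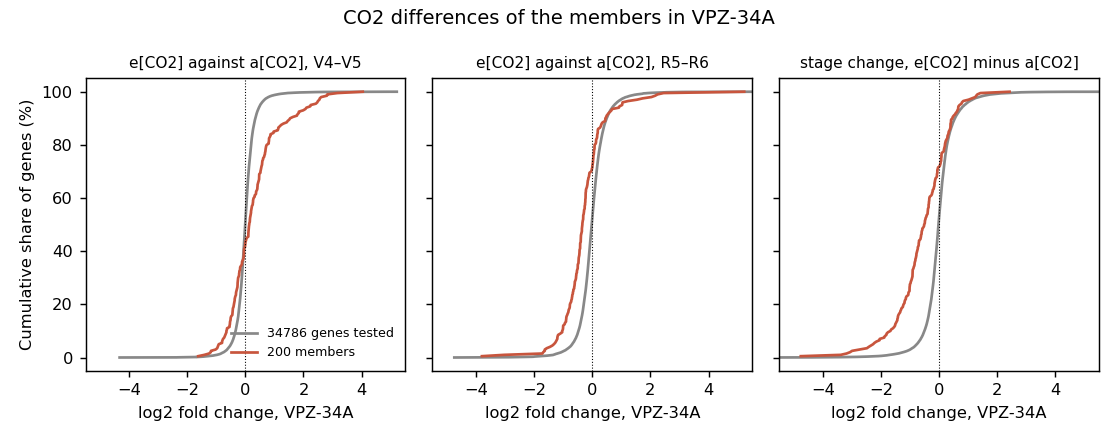
Curves give the cumulative share of genes against the log2FC in VPZ-34A for e[CO2] against a[CO2] at V4–V5, the same at R5–R6, and the difference of the stage change (e[CO2] minus a[CO2]), for the 200 members and for the 34786 genes tested, with values beyond ±5.5 outside the axis. The member curve crosses 50% at 0.13, −0.34 and −0.51 in the 3 panels.

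The 3 members with the lowest p for this difference were Glyma.13G118500, Glyma.15G158900 and Glyma.08G212300. Glyma.13G118500 was at 0 to 0.146 CPM at a[CO2] and 0.240 to 1.03 CPM at e[CO2] at V4–V5, and at 10.6 to 17.1 CPM and 8.33 to 14.3 CPM at R5–R6. Its difference was −2.997 (standard error 0.62, adjusted p = 0.928). Glyma.08G212300 was at 0.856 to 1.56 CPM and 5.12 to 9.75 CPM at V4–V5, without overlap, and at 11.2 to 62.3 CPM and 16.1 to 45.4 CPM at R5–R6, a difference of −2.35 (standard error 0.62, adjusted p = 0.928). For Glyma.15G158900 (FTSH8) the difference was −1.01 (standard error 0.22, adjusted p = 0.928).

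CO2 alone moved no member past the test at R5–R6. By edgeR 0 members were called between e[CO2] and a[CO2] in VPZ-34A and 0% of all genes were, while 42 members had an unadjusted p under 0.05, beside 11.7% of all genes tested. Of the 42, 36 were lower and 6 higher at e[CO2], and the median log2FC was −0.34 over the members and −0.02 over all genes. DESeq2 called 2 members, Glyma.05G190100 and Glyma.20G015400, both lower at e[CO2], where it called 0.178% of all genes lower and 0.351% higher. By limma-voom 0 members and 0 of the 34786 genes tested were called. Without ring 7, edgeR called 8 members, 3 higher and 5 lower, with a median of −0.17, and of all genes tested it called 0.596% higher and 0.291% lower.

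The same ratio in WT had a median of 0.04 on the log2 scale, where 92 members were lower at e[CO2], against 139 in VPZ-34A. This is a description of values that the rule used. The 4 e[CO2] libraries of VPZ-34A at R5–R6 lay below all 4 a[CO2] libraries for 4 members (Glyma.07G136200, Glyma.03G203000, Glyma.02G119600 and Glyma.15G158900), where the background was 1.78% of the genes tested. They lay above for 0 members, where it was 3.99%. None of the 4 was separated in the same way in WT.

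The lowest p for CO2 at R5–R6 was that of Glyma.05G190100, the DUF506 gene. Its a[CO2] libraries of VPZ-34A held 74.9, 90.6, 117 and 24.6 CPM in rings 1, 2, 4 and 7. Its e[CO2] libraries held 32.4, 25.4, 28.2 and 15.5 CPM in rings 3, 5, 6 and 8. Ring 7 lay among the e[CO2] rings, the other 3 a[CO2] rings lay above them, and the log2FC was −1.63 (standard error 0.37, adjusted p = 0.166). In WT it was at 37.4 to 101.5 CPM at a[CO2] and 10.9 to 49.99 CPM at e[CO2].

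Glyma.15G158900 (FTSH8) held 209, 224, 387 and 249 CPM at a[CO2] and 148, 179, 194 and 164 CPM at e[CO2] in VPZ-34A at R5–R6. The groups did not overlap, and the log2FC was −0.69 (standard error 0.16, adjusted p = 0.174). In WT they overlapped, at 173 to 447 CPM and 190.1 to 319.9 CPM. For scpl50 (Glyma.20G015400) the log2FC was −1.04 (standard error 0.24, adjusted p = 0.175).

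At V4–V5, CO2 also moved 0 members past the edgeR test in VPZ-34A, beside 0% of all genes. By limma-voom 0 members and 0 of the 34786 genes tested were called. An unadjusted p under 0.05 was found for 28 members, of which 23 were higher at e[CO2], beside 3.81% of all genes tested. The median log2FC was 0.13 over the members and −0.01 over all genes. DESeq2 called 0.023% of all genes higher and 1 member, Glyma.08G212300, whose V4–V5 levels are given above and whose log2FC was 2.55 (standard error 0.47, adjusted p = 0.708) by edgeR. In WT at V4–V5 that gene was at 0.698 to 3.26 CPM at a[CO2] and 4.29 to 14.9 CPM at e[CO2].

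Members stood beside each other in the order of the gene identifiers in 8 runs, which held 17 of the 200. The longest run was Glyma.02G135900, Glyma.02G136000 and Glyma.02G136100, with log2FC of 3.004, 2.53 and 3.62 in VPZ-34A. In the run of Glyma.13G056600 and Glyma.13G056800 the log2FC were 4.46 and 4.64, and in that of Glyma.06G248900 and Glyma.06G249100 they were 5.76 and 4.02. More than 50% of the nonzero values were not whole for 44 of the 200 members, whose reads were partly shared with similar genes. By the chromosome in the identifier, chromosome 13 held 21 members (10.5%, beside 6.82% of all genes placed on a chromosome), chromosome 2 held 16 (8%, beside 5.69%) and chromosome 1 held 4 (2%, beside 4.37%).

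At the edge of the rule, Glyma.06G162200 and Glyma.20G153700 were the last inside, with WT ratios of 2.896 and 2.893. Glyma.13G033000 and Glyma.19G202200 were the first outside, with 2.876 and 2.865.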

How the data were processed

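Leaf RNA of 32 samples was sequenced from stranded polyadenylated libraries. Per the submitters' processing notes and the methods of the study, reads were trimmed with Trimmomatic 0.39, aligned with STAR 2.7.10a to Wm82.a4.v1 with the 3 transgenes added, and counted with featureCounts of Subread 2.0.4. The authors assigned reads with several alignments fractionally, so the deposited values are estimated counts, not normalised, and 32.6% of the nonzero values were not whole. Near-identical genes therefore share reads.

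Columns were matched to samples by their labels. Levels are CPM on library totals. For tests the estimated counts of the 16 VPZ-34A libraries were rounded, filtered with filterByExpr, scaled with TMM and fitted with a mean per group by edgeR 4.0.16 in R 4.3.3 (quasi-likelihood test, Benjamini-Hochberg adjustment over all 34786 genes tested). A call needs an adjusted p under 0.05 and a log2FC of at least 1, and the difference between CO2 levels the adjusted p alone. Alternatives were DESeq2 1.42.0, limma-voom (limma 3.58.1), RLE size factors, other filters and thresholds, unrounded counts, all 32 libraries, single stages, ring blocks and each ring left out. Ring blocks at a single CO2 level were added after seeing the data.

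The ring numbers in the labels mark shared plots and pair the stages. The deviations of the VPZ-34A libraries of a ring from their group means correlated at −0.04 to 0.44 between stages (median 0.06). Each ring had 1 CO2 level, so a CO2 effect cannot be fitted with a fixed ring term. The methods describe 4 blocks that each pair an a[CO2] with an e[CO2] plot. The labels do not give which rings share a block, so the CO2 tests carry no such block.

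Named genes are the 10 highest WT ratios, the 10 highest VPZ-34A levels at R5–R6, up to 3 per pathway list, the 3 with the lowest p for the CO2 difference of the stage change, the 5 smallest stage changes and the 4 at the edge of the rule. Members that the CO2 test called would have been added. Others were chosen after their values were seen. The members and lists were chosen with earlier results of these data known. Libraries of the same group (48 pairs) differed by at least 11.6 chi-square units per gene, so none was counted as a copy. Replicates are separate rings, and floors and counts cover counting error only.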

Additional observations from a re-analysis of the deposited data

Results flagged for a closer look

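Within the 384 groups of 4 libraries examined for the 47 named members and for the summed members, 42 groups held a library whose gap to its nearest neighbour exceeded the share of the group's range that Dixon's test allows at 95% on the log2(CPM + 0.5) scale. Chance flags about 1 in 20 groups, and a group with fewer than 3 counts in every library is among the 384 but is not listed. The levels of these libraries follow in CPM, and the named members include genes chosen after their values were seen, some of them for such libraries.

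The WT library of ring 8 at R5–R6 was the highest of its e[CO2] group in 8 cases. Its summed member level was 26018 CPM, against 12659 to 13908 CPM in the other 3 libraries. It held 924 CPM of Glyma.18G210500, 389.5 CPM of Glyma.08G355900, 323 CPM of Glyma.09G009700, 319.9 CPM of Glyma.15G158900 (FTSH8), 159 CPM of Glyma.18G172800, 49.8 CPM of Glyma.19G108100 and 40.05 CPM of Glyma.13G004400. In VPZ-34A the ring 8 library at R5–R6 was the highest for Glyma.13G004400 (166 CPM) and Glyma.11G093100 (133 CPM). At V4–V5 it was the highest for Glyma.13G004400 (1.44 CPM), Glyma.09G009700 (1.39 CPM) and Glyma.20G154200 (AGL42, 1.39 CPM).

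The WT library of ring 7 at V4–V5 was the highest of its a[CO2] group for 6 members. These were Glyma.13G004400 (10.5 CPM), Glyma.18G052600 (4.30 CPM), Glyma.08G212300 (3.26 CPM), Glyma.19G015000 (2.27 CPM), Glyma.06G307900 (0.839 CPM) and Glyma.11G093100 (0.148 CPM). In VPZ-34A, ring 7 was the highest at R5–R6 for Glyma.08G200100 (655 CPM) and Glyma.18G052600 (151 CPM) and the lowest for Glyma.13G118500 (10.6 CPM). At V4–V5 it was the highest for Glyma.20G154200 (0.959 CPM) and the lowest for Glyma.18G210500 (0.0436 CPM).

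Ring 3 of VPZ-34A was the lowest of its group for Glyma.05G247900 (PAP17, 32.8 CPM), Glyma.08G212300 (16.1 CPM) and Glyma.20G153700 (SEP3, 10.97 CPM) at R5–R6 and for Glyma.08G212300 (5.12 CPM) at V4–V5, and the highest for Glyma.16G044200 (63.5 CPM) at R5–R6. Ring 4 was the highest of its WT group at R5–R6 for Glyma.17G230700 (3793 CPM) and Glyma.14G092800 (2039.7 CPM) and at V4–V5 for Glyma.20G015400 (3.78 CPM). In VPZ-34A at V4–V5 ring 4 was the lowest for Glyma.08G093600 (0.755 CPM) and Glyma.18G172800 (0.151 CPM).

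Ring 5 was the highest of its e[CO2] group for Glyma.03G226800 (3.71 CPM) and Glyma.02G070000 (1.94 CPM) in VPZ-34A at V4–V5, for Glyma.05G141300 (50.8 CPM) in VPZ-34A at R5–R6 and for Glyma.19G015000 (1.01 CPM) in WT at V4–V5. Ring 2 of VPZ-34A was the highest for Glyma.20G238000 (6.65 CPM) at V4–V5 and for Glyma.15G114000 (5.64 CPM) at R5–R6. Ring 1 of WT was the lowest at R5–R6 for Glyma.19G008700 (19.6 CPM) and Glyma.18G210500 (7.57 CPM).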

How the results depend on the processing

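Of 130 counts of members recomputed under an alternative, 121 stayed within 1.5 times the reported count and 9 did not. With at least 10 counts required in every library, only 115 members were tested, and the members higher at R5–R6 in VPZ-34A numbered 114, with 112 at a[CO2] and 109 at e[CO2]. For CO2 at R5–R6, where edgeR called 0 members, DESeq2 called 2 and the fit averaged over both lines, which includes WT values, 1. Of the 35639 genes tested, that averaged fit called 71 higher and 54 lower. For CO2 at V4–V5, DESeq2, the V4–V5 libraries alone and the fit averaged over lines each called 1. In that order they called 8 higher and 0 lower of 34786 genes, 1 and 1 of 32618, and 5 and 0 of 35639. Leaving out each ring in turn gave 195 to 197 members higher at R5–R6, 191 to 194 at a[CO2], 187 to 192 at e[CO2], 0 to 8 changed by CO2 at R5–R6 (8 without ring 7), and 0 to 0 changed by CO2 at V4–V5 or in the stage change. With the ring as a fixed replicate block, 196 members were higher at R5–R6 and 0 differed in the stage change with CO2, and with the ring as a random block in limma-voom 193 were higher and 0 were changed by CO2 at either stage. For Glyma.08G200100 the stage log2FC of 2.53 turned to −1.36 in limma-voom, −1.10 with the fixed block, −1.34 with the random block and −2.59 without ring 7. The cause was not tested. Among the other named members, 16 values lost the call and 2 of Glyma.14G195000 gained it, all with the same direction. Changing the rule kept 146 genes of the 200 (a minimum of 20 CPM) to 190 (a pseudocount of 1 or 0.1), and leaving out a ring kept 180 to 193. Low V4–V5 counts limit the size of the largest fold changes, and 4 libraries for each CO2 level limit the CO2 comparisons.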
